A study of Mus musculus with 4 samples.

Results

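The genes described here encode the proteins of the mitochondrial ribosome. All rows whose symbol begins with Mrpl or Mrps followed by a number were taken, which gave 77 of the 23282 gene rows. By their symbols 48 belong to the large subunit (Mrpl) and 29 to the small subunit (Mrps). The rule used symbols and no measured value, but it was chosen with earlier results of these data known. Gastrocnemius muscle of male CDF1 mice was profiled by 3′ mRNA sequencing in a design that crossed high-intensity treadmill exercise (E) with a tumor (T) raised from CT26 murine colorectal cancer cells, which were given through the tail vein. Healthy mice that did not exercise formed the normal control (E-T-), and healthy mice that exercised formed the normal exercise group (E+T-). Tumor-bearing mice formed the cancer control (E-T+) when sedentary and the cancer exercise group (E+T+) when exercised. The labels give postnatal day 28 for all mice, which by the methods is near the age at purchase rather than at tissue collection, and a group size of 10, but each group has 1 library. The study describes a single representative mouse for each group, so it was not settled whether the RNA of a library came from 1 animal or from a pool.

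Mitochondria carry their own ribosome, which makes only the few respiratory chain subunits that mitochondrial DNA encodes. Its RNAs come from mitochondrial DNA, whereas all of its proteins are encoded in the nucleus, made in the cytosol and imported. Some of these proteins have relatives in bacterial ribosomes, and others occur only in mitochondria. Skeletal muscle is rich in mitochondria and depends on these ribosomes to build its respiratory complexes.

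The symbols do not match the structure in every case. Mrps18a and Mrps30 were named as small subunit proteins but sit in the large subunit. Mrps36 is not a ribosomal protein and belongs to the 2-oxoglutarate dehydrogenase complex. Moving these genes gave 50 large and 26 small subunit genes, and the counts below follow the symbols unless stated otherwise. All 77 symbols matched a protein-coding gene of the GENCODE M21 annotation (mouse build GRCm38, which mm10 also names), and the genes lay on 17 chromosomes.

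The libraries held 10647688 to 13225922 reads, with reads for 14427 to 14830 genes. Reads start at the 3′ end of the transcript in this assay and do not scale with its length, so that levels can be set beside each other between genes, apart from differences in priming. Levels are normalized read counts, that is, read counts after the authors' scaling to a common library size. A log2 change is the difference of 2 deposited values, each the log2 of a normalized count with 1 added. Intervals are 95% Clopper-Pearson intervals of read shares and cover counting error only. Each group has a single library, so that there is no replicate error, no test was possible, and each difference below is one between 2 libraries. A gene is said to have changed, risen or fallen when the difference was at least 2-fold and either of the libraries compared reached a normalized level of 4.

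The cells in the tissue also differed between the libraries, as seen from markers. The 10 skeletal muscle fibre markers had reads in every library and took 12% of the reads in E-T-, 11.1% in E+T-, 8.33% in E-T+ and 8.47% in E+T+, more than any other marker list in every library. Red cell markers (9 genes) took 2.74%, 0.609%, 2.76% and 5.82% in the same order. The 8 fibroblast markers took 0.794%, 0.419%, 0.325% and 0.316%, and the 8 tendon markers 0.0877%, 0.0472%, 0.0133% and 0.0344%. Neutrophil markers took 0.000577%, 0.00144%, 0.0234% and 0.0165%, with 4, 5, 7 and 6 of 9 genes detected. Fat markers took 0.319%, 0.201%, 0.11% and 0.223%. All 7 were at least 2-fold lower with the tumor without exercise (median log2 change -2.97), and 5 of the 6 measured were higher with exercise in tumor-bearing mice (median 1.45). Keratinocyte markers took 0.00167%, 0.00183%, 0.00681% and 0.000726%, with 6 of 7 higher in the tumor comparison without exercise (median 4.43) and 7 of 7 lower with exercise in tumor-bearing mice (median -4.42). The other marker lists each took at most 0.0632% of the reads of a library. In whole tissue, fewer cells of a type and less RNA per cell cannot be told apart, and the part of these shifts in the changes below was not tested.

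All 77 genes had reads in every library, and all met the minimum in every library. They took 0.6421% of the reads in E-T-, 0.7218% in E+T-, 0.5447% in E-T+ and 0.6682% in E+T+. After the authors' normalization their summed level was 76964 in E-T-, 77393 in E+T-, 62107 in E-T+ and 79795 in E+T+. The cancer control was thus the low library, and the other sums lay close together. The summed level of the large subunit genes was 54265, 54502, 42122 and 54993, and that of the small subunit genes 22699, 22892, 19986 and 24801. The ratio of the large to the small subunit sum was 2.391, 2.381, 2.108 and 2.217, lowest in the cancer control. Sums weigh abundant genes most, such as the large subunit gene Mrpl42 with 5445 in E-T- and 2168 in E-T+. By median log2 change in E-T+ against E-T- the small subunit was the lower one, with -0.396 against -0.191. Of the 77 genes 41 had their lowest value in the cancer control, 25 of the large and 16 of the small subunit. The lowest value was in E-T- for 15 genes, in E+T- for 13 and in E+T+ for 8, and 11 genes had their highest value in the cancer control. The same counts were not made over all genes, so they have no background.

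**Figure D1:**
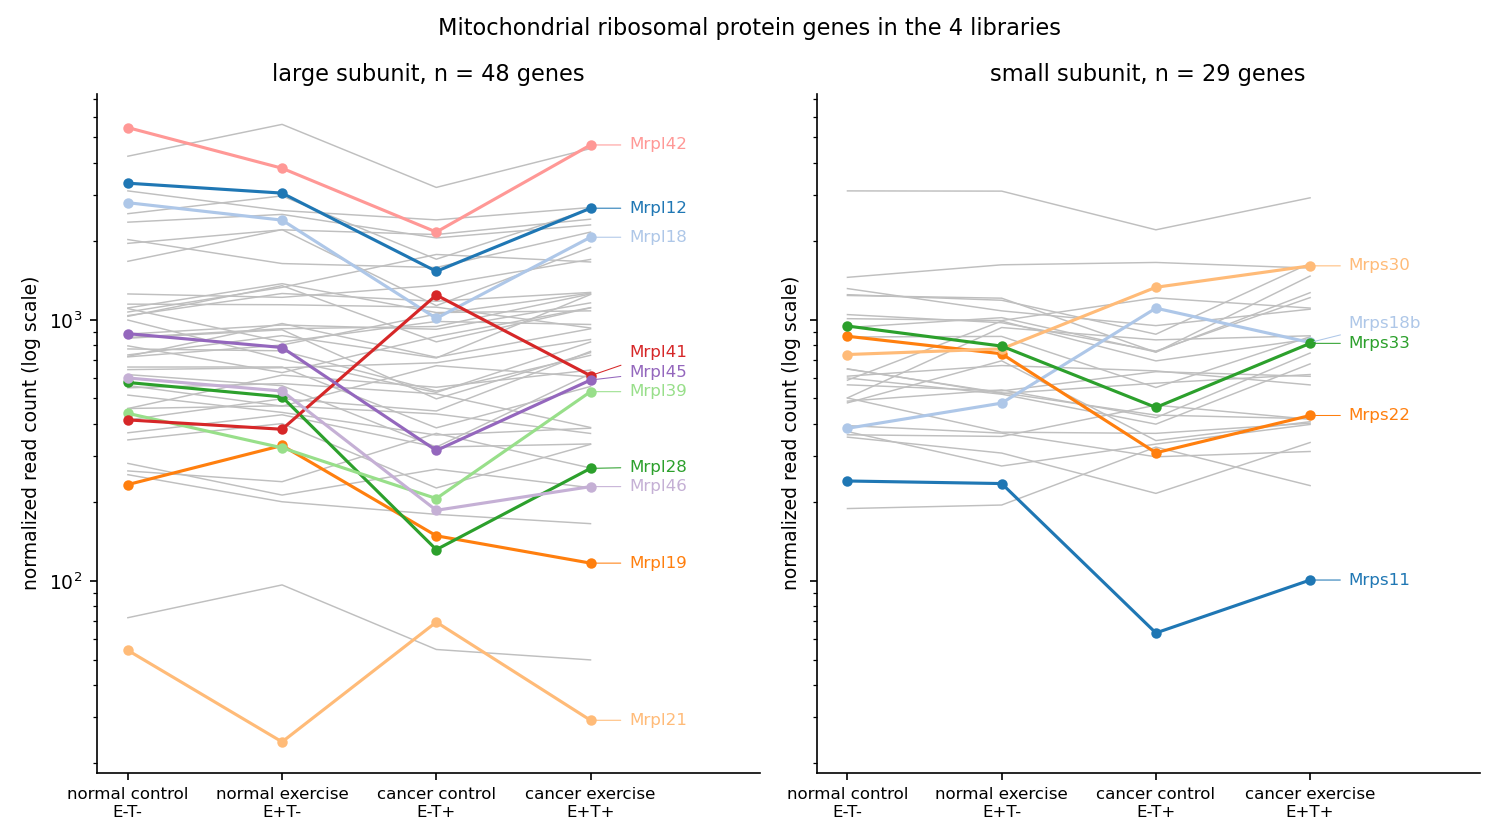
Normalized read count (log scale) of each of the 48 large subunit and 29 small subunit genes in the 4 libraries, 1 library per group, with 1 line per gene and no error bars. Coloured lines are the genes that changed at least 2-fold in any comparison, and most of them dip in the cancer control (E-T+), while Mrpl41, Mrps18b and Mrpl21 peak there.

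Levels ranged widely between the genes. The median gene had a normalized read count of 721 in E-T-, 741 in E+T-, 637 in E-T+ and 812.5 in E+T+, against 127, 127, 120 and 127 for all genes with reads. The 5 genes with the highest mean levels were Mrpl53, Mrpl42, Mrps21, Mrpl33 and Mrpl12. Mrpl53, which lies near the stalk of the large subunit, had 4231, 5602, 3213 and 4525 in E-T-, E+T-, E-T+ and E+T+. Mrps21, a small subunit protein with a bacterial relative, had 3116, 3110, 2211 and 2932, and Mrpl33, a large subunit protein with a bacterial relative, had 3116, 2620, 2413 and 2692. All 3 were lowest in the cancer control and none changed 2-fold. The 5 lowest means were those of Mrpl21, Mrpl15, Mrps11, Mrpl48 and Mrpl19, 4 of them large subunit genes. Mrpl15 had 72.3, 96.5, 54.6 and 49.8, and Mrpl48 had 255, 201, 180 and 166. The means spanned 44.3 to 4393, and 9869 genes of the table lay in that range, which is used below as a second background.

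Sequences upstream of 5 genes are shown because the results below turn on these genes, 4 of which fell in the cancer control and 1 of which rose. They were read from RefSeq promoter sequences of build GRCm38.p6 (mouse). They are printed 5′ to 3′ on the strand of the gene and end at or shortly before its annotated start. Capitals mark the letters CCGGAAG or their reverse complement CTTCCGG, the core of sites bound by ETS factors such as GABPA, a regulator of nuclear genes for mitochondrial proteins. Mrps11 and Mrpl46 lie head to head and are transcribed away from each other, with RefSeq starts at 78783131 and 78783089 of chromosome 7 and 41 bases between them. GENCODE M21 starts them at 78783119 and 78783531, so that the gene spans overlap there, and the sequence of Mrps11 is the part between the RefSeq starts that holds no annotated exon.
Mrps11, chr7:78783090-78783118, plus strand: ccatgaggcaacgcgggccggcgaggggc
Mrps22, chr9:98601680-98601829, minus strand: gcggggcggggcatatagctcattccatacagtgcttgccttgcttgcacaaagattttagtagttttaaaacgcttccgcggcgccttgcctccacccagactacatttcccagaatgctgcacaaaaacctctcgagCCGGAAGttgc
Mrpl28, chr17:26123353-26123499, plus strand: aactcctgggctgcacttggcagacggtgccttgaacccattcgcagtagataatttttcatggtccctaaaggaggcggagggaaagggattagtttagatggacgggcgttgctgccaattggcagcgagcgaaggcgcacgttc
Mrpl42, chr10:95501950-95502099, minus strand: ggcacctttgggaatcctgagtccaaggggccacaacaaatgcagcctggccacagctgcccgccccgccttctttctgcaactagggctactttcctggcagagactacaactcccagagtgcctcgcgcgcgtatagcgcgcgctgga
Mrpl41, chr2:24975099-24975248, minus strand: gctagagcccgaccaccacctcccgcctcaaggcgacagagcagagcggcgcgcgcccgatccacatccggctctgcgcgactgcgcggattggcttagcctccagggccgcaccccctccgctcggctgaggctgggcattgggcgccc
Of these stretches that of Mrps22 holds the ETS letters, and the others do not. GC content was 79.3% for Mrps11, 52.0% for Mrps22, 54.4% for Mrpl28, 61.3% for Mrpl42 and 72.7% for Mrpl41.

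Promoter windows from 250 bases before to 50 after the start were given for 68 of the 77 genes (74 windows, of 32851 in all). The ETS letters, on either strand, were in 33.8% of the windows of these genes and in 8.86% of all windows. They were in 29.8% of the 47 large subunit windows and 40.7% of the 27 small subunit windows. The letters AAGATGGC (reverse complement GCCATCTT) of YY1, another factor that acts on genes for mitochondrial proteins, were in 16.2% against 2.75%. They were in 12.8% of the large and 22.2% of the small subunit windows. Of the genes that changed, Mrpl42 and Mrps11 held the YY1 letters, Mrpl39 the NRF1 letters, and Mrpl18, Mrpl21, Mrps18b, Mrps22 and Mrps33 the ETS letters. Genes of both directions were among them. A match in these windows is a description of sequence, and binding was not measured.

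The first comparison asked what exercise does in healthy muscle. In E+T- against E-T-, 1 of the 77 genes changed (1.30%), where 21.5% of all genes tested (9.44% higher, 12.1% lower) and 7.61% of genes in the same range of levels (3.35% higher, 4.26% lower) did. The median log2 change was -0.021, close to that of all genes (-0.01), with 36 genes above and 41 below 0. By symbol it was 0.013 for the large and -0.032 for the small subunit. These medians took the sign of the scaling, and under total count scaling they became 0.14, 0.173 and 0.127, where the median of all genes also moved by 0.16.

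The gene that changed was Mrpl21, a large subunit protein with a bacterial relative and the lowest mean level of all. The call depended on the scaling, and under total count scaling the log2 change of Mrpl21 was -0.97, while Mrps26 was called instead, higher at 1.05. It had 51, 30, 65 and 27 reads in E-T-, E+T-, E-T+ and E+T+, or normalized read counts of 54.2, 24.2, 69.6 and 29.3. Both exercise libraries were low and both sedentary libraries high. Exercise in healthy mice came with a log2 change of -1.13 (-1.86 to -0.48), and in tumor-bearing mice with one of -1.22 (-1.96 to -0.58). These comparisons share no library. With the deposited scaling it was the only gene of the 77 to change in both of them, and with total count scaling it changed in the second alone. With the deposited scaling the next largest differences were positive and below 2-fold. Mrps26, a mitochondria-specific small subunit protein, had 502, 934, 838 and 868.5, a log2 change of 0.89 (0.74 to 1.05), and Mrps34, of the same class, had 587, 989, 696 and 843.5, a log2 change of 0.75. An exon of Mapk8ip3 on the other strand overlaps the 3′ end of Mrps34, and reads of the genes may be mixed there because the strand setting of the counting was not stated.

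The second comparison asked what the tumor does without exercise. In E-T+ against E-T-, 12 of the 77 genes changed (15.6%), 10 of them lower and 2 higher with the tumor. The background was 45.1% of all genes tested and 34.1% of genes in the same range of levels. Among all genes 20.9% were higher and 24.2% lower, and in the same range of levels 15.9% and 18.3%. The median log2 change of the 77 genes was -0.311 (quartiles -0.59 to 0.11), with 25 above and 52 below 0, against a median of -0.043 for all genes. It was -0.191 for the large and -0.396 for the small subunit by symbol, and -0.172 and -0.423 by structure. The muscle fibre markers had a median log2 change of -0.52 in this comparison, with 4 of 10 lower and 1 higher by at least 2-fold, and their part in the lower values was not tested.

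Among the large subunit genes 7 fell and 1 rose. Mrpl28, a protein with a bacterial relative (chromosome 17, 26123500 to 26126613, plus strand), had 575, 507, 132 and 270 in E-T-, E+T-, E-T+ and E+T+. The tumor libraries lay below both healthy ones, the sedentary one most. The log2 change was -2.12 (-2.42 to -1.84), the largest fall of the 77. Mrpl46, a mitochondria-specific protein of the central protuberance, had 599, 533.5, 186 and 230, a log2 change of -1.68 (-1.94 to -1.44). Both tumor libraries were again below both healthy ones.

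Mrpl45, which lies at the exit of the peptide tunnel and holds the ribosome at the inner membrane, had 885, 783, 316 and 588, a log2 change of -1.48 (-1.68 to -1.29). Mrpl18, a conserved protein of the central protuberance, had 2808, 2408, 1013 and 2071, a log2 change of -1.47 (-1.58 to -1.36). Mrpl42, a mitochondria-specific protein and the second most abundant of the transcripts, had 5445, 3805, 2168 and 4672, a log2 change of -1.33 (-1.40 to -1.25). In these genes the cancer control stood apart from the other 3 libraries, and cancer exercise lay between the healthy ones for Mrpl42 and below them for the other genes.

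Mrpl12, the stalk protein that engages translation factors, had 3335, 3056, 1533 and 2675, a log2 change of -1.12 (-1.21 to -1.03). Mrpl39, a mitochondria-specific protein related to threonyl-tRNA synthetases, had 438, 323.5, 207 and 530.5, a log2 change of -1.08 (-1.34 to -0.83). Mrpl39 was lowest in the cancer control and highest in cancer exercise. Mrpl41, a mitochondria-specific protein (chromosome 2, 24974117 to 24975098, minus strand), went the other way. It had 414, 381, 1244 and 611 and rose by 1.59 (1.42 to 1.76), the largest rise of the 77, and both tumor libraries were above both healthy ones.

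Among the small subunit genes 3 fell and 1 rose. Mrps11, a conserved protein of the platform, had 241, 236, 63.2 and 101, a log2 change of -1.92 (-2.37 to -1.52). Mrps22, a mitochondria-specific protein mutated in a human respiratory chain disorder, had 865, 741, 310 and 430, a log2 change of -1.48 (-1.68 to -1.29). In both genes the tumor libraries were below both healthy libraries. Mrps33, also specific to mitochondria, had 946.5, 793, 462 and 812.5, a log2 change of -1.03 (-1.21 to -0.87), just past the threshold and low in the cancer control alone. It was at -0.96 under total count and -0.998 under median-of-ratios scaling.

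Mrps18b rose. It had 384, 480, 1108 and 819, a log2 change of 1.53 (1.36 to 1.71), and both tumor libraries were above both healthy ones. An antisense gene, Gm16279, which has no row in the table, overlaps its 3′ end, and its reads cannot be told apart from those of Mrps18b without the strand. Mammals have 3 relatives of bacterial S18, and they differed in direction. Mrps18a, which sits in the large subunit, had 564, 534, 633 and 607.5, a log2 change of 0.17 (0.00 to 0.34). Mrps18c had 647.5, 525, 432 and 418, a log2 change of -0.58 (-0.77 to -0.40).

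Mrpl1 and Mrpl47 lay just outside the threshold, both with a log2 change of -0.92. On the positive side Mrps27 reached 0.78, Mrps26 0.74 and Mrpl17 0.73, and Mrps30 0.85. Mrps36, the gene that is no ribosomal subunit, had 599, 519, 398.5 and 678, a log2 change of -0.59 (-0.78 to -0.40).

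**Figure D2:**
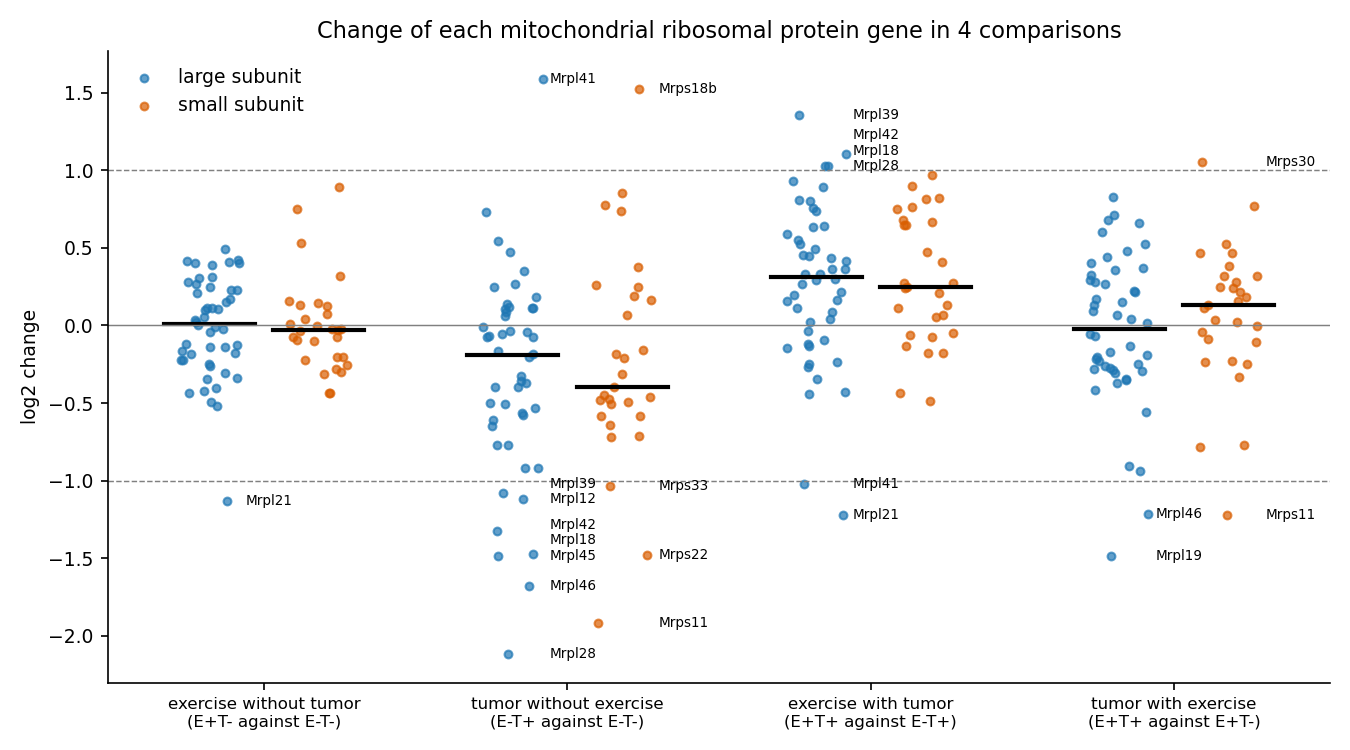
Log2 change of each of the 77 genes (points, large and small subunit in separate colours) in the 4 comparisons, 1 library against 1, with no error bars. Dashed lines mark the 2-fold threshold, and names stand beside points past it. The spread is largest with the tumor without exercise, where 12 genes lie past the threshold, against 1 with exercise in healthy mice.

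A further comparison asked what exercise does in tumor-bearing mice. In E+T+ against E-T+, 6 of the 77 genes changed (7.79%), 4 higher and 2 lower, against 30.6% of all genes tested (15.6% higher, 15.1% lower) and 16.9% of those in the same range of levels (10.0% higher, 6.88% lower). All 6 belong to the large subunit. No small subunit gene changed, and their log2 changes ran from -0.49 to 0.97. The median of the 77 was 0.277 (quartiles -0.05 to 0.65), with 56 genes above and 21 below 0, while the median of all genes was 0.005. The large subunit had a median of 0.315 and the small subunit 0.249.

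The genes that rose had all fallen in the cancer control against the normal control, and both comparisons use the cancer control library, once on each side of the difference. Mrpl39 rose by 1.35 (1.12 to 1.61), Mrpl42 by 1.11 (1.03 to 1.18), Mrpl18 by 1.03 (0.92 to 1.15) and Mrpl28 by 1.03 (0.72 to 1.36) on the log2 scale. Mrpl18 and Mrpl28 lay close to the threshold and fell short of it under total count scaling (both 0.96), and Mrpl28 also under median-of-ratios scaling (0.998), which left 2 and 3 higher genes in place of 4. Mrpl41 fell by 1.02 (-1.17 to -0.88), also close to the threshold, and Mrpl21 fell as given above. Just below 2-fold were the small subunit genes Mrps15 with 1239, 1210, 752 and 1471, a log2 change of 0.97 (0.84 to 1.10), and Mrps16 with 0.90. Mrpl1 had a log2 change of 0.93, Mrpl45 of 0.89 and Mrps33 of 0.81. The other genes that fell in the cancer control were higher by less, Mrpl12 by 0.80, Mrps11 by 0.66, Mrps22 by 0.47 and Mrpl46 by 0.30.

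The last comparison asked what the tumor does in exercised mice. In E+T+ against E+T-, 4 of the 77 genes changed (5.19%), 1 higher and 3 lower, against 30.3% of all genes tested (13.9% higher, 16.3% lower) and 17.8% of those in the same range of levels (8.74% higher, 9.04% lower). The median log2 change was 0.039, with 42 above and 35 below 0, but it turned to -0.116 under total count scaling, which moved the median of all genes by -0.155. The large subunit had a median of -0.022 and the small subunit 0.134, which became -0.177 and -0.021 under total count scaling.

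Mrpl19, a conserved large subunit protein, had 234, 330, 149 and 117 in E-T-, E+T-, E-T+ and E+T+ and fell by 1.49 (-1.82 to -1.19). Its 3′ end is overlapped by Gcfc2 on the other strand, so its reads are uncertain in the same way as those of Mrps18b. Mrps11 fell by 1.22 (-1.58 to -0.89) and Mrpl46 by 1.21 (-1.45 to -0.99). Mrps30, which sits in the large subunit in spite of its symbol, had 736, 774, 1332 and 1609 and rose by 1.05 (0.94 to 1.17), with both tumor libraries above both healthy ones. Under total count scaling Mrps30 was at 0.90 and not called, while Mrpl15 at -1.09 and Mrpl28 at -1.06 were, which gave 0 higher and 5 lower genes. With the deposited scaling Mrpl15 at -0.94 and Mrpl28 at -0.91 lay just outside the threshold, as did Mrpl35 at 0.83 on the positive side.

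The tumor effects without and with exercise share no library and could be set against each other. Of the 77 genes 52 (67.5%) had the same sign in both, near the 66.9% of all genes and the 69.5% of genes in the same range of levels. The large subunit had 39 of 48 (81.2%) and the small subunit 13 of 29 (44.8%). These counts are for the deposited scaling, and signs of values near 0 depend on it. The small subunit medians without and with exercise were -0.396 and 0.134, but -0.324 and -0.021 under total count scaling. The contrast between the subunits may therefore reflect the scaling in part. Across the 77 genes the Pearson correlation of these log2 changes was 0.561 and Spearman's rho was 0.462, against a Pearson correlation of 0.624 for genes in the same range of levels. These are correlations across genes of the same 4 libraries, and genes are not independent replicates. Mrps11 and Mrpl46 changed in both comparisons, and both fell in each.

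Exercise was likewise measured in separate libraries for healthy and tumor-bearing mice. Here 39 of 77 genes (50.6%) had the same sign, against 48.3% of all genes, and the Pearson correlation was 0.016. The exercise effect with the tumor minus that without had a median of 0.307, against 0.017 for genes in the same range of levels and 0.029 for all genes. It was above 0 for 54 genes (70.1%, against 50.9% and 51.3%), and at least 1 on the log2 scale in either direction for 9 genes (11.7%, against 25.8% and 35.3%). The largest differences were 1.79 for Mrpl39, 1.62 for Mrpl42, 1.25 for Mrpl18 and 1.21 for Mrpl28, and the most negative were -0.91 for Mrpl41, -0.84 for Mrps26 and -0.84 for Mrpl19. Under total count scaling the median became 0.08. That scaling also moved the median exercise effect of all genes, by 0.16 without the tumor and by -0.066 with it. The background values above belong to the deposited scaling and cannot be set against the 0.08.

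**Figure D3:**
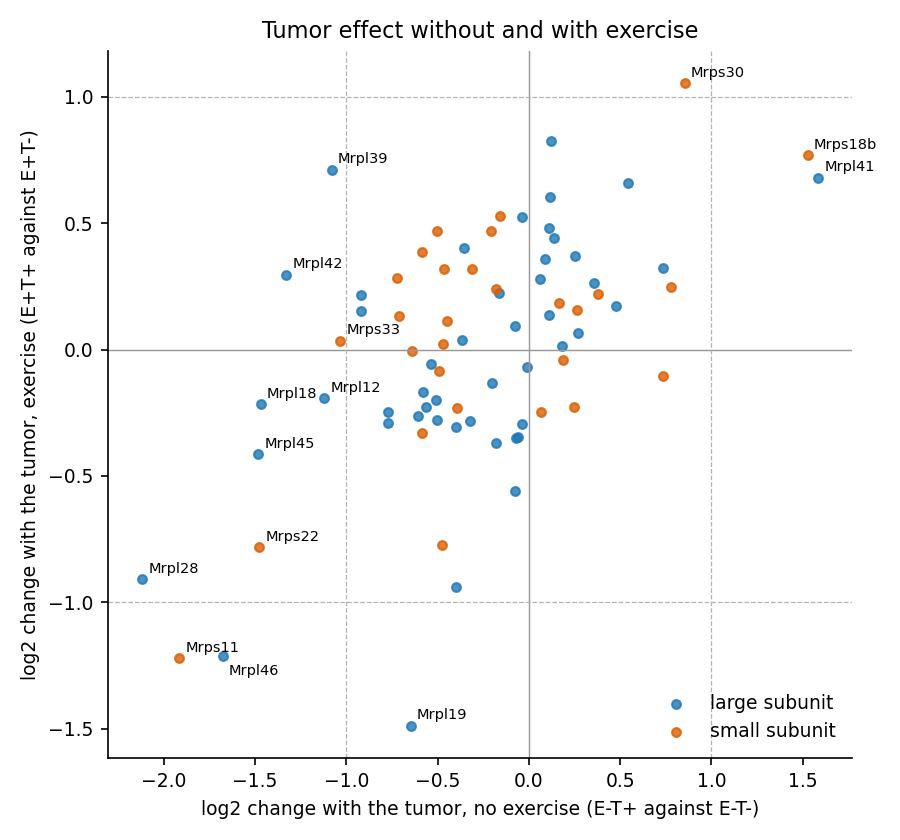
Log2 change with the tumor in exercised mice (vertical axis, E+T+ against E+T-) against that in sedentary mice (horizontal axis, E-T+ against E-T-), 1 point for each of the 77 genes, coloured by subunit, with dashed lines at 2-fold. Mrps11 and Mrpl46 are the points past the threshold on both axes, and 52 points lie in the quadrants of equal sign.

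In any of the 4 comparisons 15 of the 77 genes changed, 7 of them in 1 and 8 in 2. The other 62 changed in none. The share of all genes that changed in any comparison was not computed. In each single comparison the share of the 77 lay below that of all genes and of genes in the same range of levels. The counting interval of the log2 change lay on one side of 0 for 45 genes with exercise alone, 58 with the tumor without exercise, 58 with exercise in tumor-bearing mice and 59 with the tumor in exercised mice, so for most genes the difference between 2 libraries was larger than counting error. How far it exceeds the difference between animals could not be measured. These interval counts were not made for all genes.

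The large and the small subunit were set side by side in each comparison. The median of the large subunit minus that of the small was 0.045 with exercise alone, 0.206 with the tumor without exercise, 0.066 with exercise in tumor-bearing mice and -0.156 with the tumor in exercised mice. With the tumor without exercise the quartiles of the log2 change were -0.62 and 0.11 for the large and -0.58 and 0.19 for the small subunit, so that the ranges nearly coincided. In the same comparison 8 of 48 large subunit genes (16.7%) and 4 of 29 small subunit genes (13.8%) changed. The difference between the subunits was thus small beside the spread among the genes of each, and it had no replicate check.

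The structural classes were described with the tumor without exercise, where the changes were largest. The 31 large subunit genes with bacterial relatives had a median log2 change of -0.164, with 3 lower and none higher by at least 2-fold. The 19 large subunit genes found only in mitochondria had a median of -0.324, with 4 lower and 1 higher. The 17 conserved small subunit genes had a median of -0.463, with 14 below 0, 1 lower and 1 higher by 2-fold, and the 9 mitochondria-specific ones a median of 0.189, with 5 above 0 and 2 lower by 2-fold. In the stalk and its base, Mrpl12 and Mrpl53 had log2 changes of -1.12 and -0.40, Mrpl10 of -0.18 (-0.41 to 0.05) and Mrpl11 of 0.18 (0.06 to 0.31). Mrpl10 had 369, 433, 325.5 and 335 and Mrpl11 had 1038, 1261, 1178 and 1273. With exercise in tumor-bearing mice the medians of the 4 classes lay between 0.239 and 0.30.

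Mitochondrial ribosomes also hold proteins whose symbols do not follow the Mrp pattern, and 6 of these were listed. With the tumor without exercise 1 of them fell and none rose. Chchd1, a small subunit protein, had 7195, 6998, 3427 and 5602 in E-T-, E+T-, E-T+ and E+T+, above every Mrp gene in the normal control, and fell by 1.07. Ptcd3, another small subunit protein, had a log2 change of -0.78, and Gadd45gip1, of the large subunit, of 0.76. All 6 were higher with exercise in tumor-bearing mice, by 0.05 to 0.71, and none of these differences reached 2-fold.

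The proteins that serve the mitochondrial ribosome were taken from lists of pathway genes. With the tumor without exercise the shares of these lists that changed, given below, stood against 45.1% of all genes and 34.1% of genes in the level range of the 77. By direction, 24.2% of all genes fell and 20.9% rose, and in the level range 18.3% and 15.9%. Of 15 translation factors 5 (33.3%) fell and none rose in that comparison (median -0.39). The total share was near the background, but all of it was in 1 direction. With exercise in tumor-bearing mice, which shares the cancer control library with that comparison, 4 (26.7%) rose and none fell (median 0.448). There 30.6% of all genes changed (15.6% higher, 15.1% lower), and 16.9% in the level range (10.0% higher, 6.88% lower). Mtif2, the initiation factor that places the first tRNA, had 351, 403, 102 and 222, and its log2 change with the tumor was -1.77 (-2.13 to -1.45). Lrpprc, which stabilizes mitochondrial mRNA, had 1679, 996, 651 and 1413, a log2 change of -1.36. Taco1, an activator of COX1 translation, had 37.2, 52.0, 12.9 and 29.2, a log2 change of -1.46 (-2.62 to -0.55).

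Of 23 assembly genes 8 fell and 2 rose with the tumor without exercise (43.5% in all, near the share of all genes). Ftsj2, the methyltransferase Mrm2 of the large subunit RNA, had 113, 114, 15.1 and 38.0, a log2 change of -2.82 (-3.83 to -2.10). Gtpbp10, a GTPase of large subunit assembly, had a log2 change of -1.65. Malsu1, which keeps the immature large subunit from joining the small one, rose, with 1559, 2174, 5066 and 3056, a log2 change of 1.70 (1.62 to 1.79). Of 17 mitochondrial tRNA synthetases 5 (29.4%) fell and none rose, where 24.2% of all genes and 18.3% in the level range fell. Cars2 had a log2 change of -1.81 and Nars2 of -1.66.

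Among 12 genes for the expression and copying of mitochondrial DNA 3 fell and 1 rose (33.3% in all, near the background). Tfam, which packages this DNA and starts its transcription, had 575, 552, 235 and 413, a log2 change of -1.29 (-1.53 to -1.07). Tefm, the elongation factor, had a log2 change of -1.05. Polg2, the accessory subunit of the DNA polymerase, had 46.8, 21.8, 4.34 and 49.7, a log2 change of -3.16 with a wide interval (-5.39 to -1.99).

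Of 11 regulators of mitochondrial genes 2 rose and 2 fell (36.4% in all, near the background). Ppargc1b, a coactivator of mitochondrial biogenesis, had 220, 216.5, 62.2 and 194, a log2 change of -1.81. Gabpa, whose letters were searched above, had 98.9, 79.3, 236.5 and 109, a log2 change of 1.25 (0.90 to 1.62). Myc, a growth regulator that also acts on ribosomal genes, had 1, 4, 35 and 41 reads, a log2 change of 4.18 with an interval of 2.57 to 10.48 because the normal control held a single read. No row of the table belonged to a gene encoded by mitochondrial DNA, so transcripts of the RNAs and proteins that these ribosomes use and make were not analysed here.

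The ribosome of the cytosol and the respiratory complexes gave a frame for the 77 genes. In E-T+ against E-T-, all 77 cytosolic ribosomal protein genes were above 0, with a median log2 change of 0.842, and 26 of them (33.8%) rose and none fell, where 20.9% of all genes were higher and 24.2% lower. In the same comparison 70 of 80 genes for subunits of oxidative phosphorylation were below 0, with a median of -0.627, and 21 (26.2%) fell and none rose. Both shares lay below the 45.1% of all genes that changed in either direction. Each list changed in 1 direction only, and there its share was above that of all genes. The mitochondrial ribosomal genes, with a median of -0.311, lay between these lists and had members in both directions. With exercise in tumor-bearing mice the medians were -0.263 for the cytosolic ribosome, 0.424 for oxidative phosphorylation and 0.277 for the mitochondrial ribosome. With exercise in healthy mice they were 0.112, -0.276 and -0.021, and with the tumor in exercised mice 0.447, 0.147 and 0.039. The medians of the mitochondrial and the cytosolic ribosome had opposite signs with the tumor without exercise and with exercise in tumor-bearing mice. Both of these comparisons use the cancer control library, once on each side of the difference, so they are not separate observations. In the other comparisons the mitochondrial median was near 0 and its sign depended on the scaling.

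**Figure D4:**
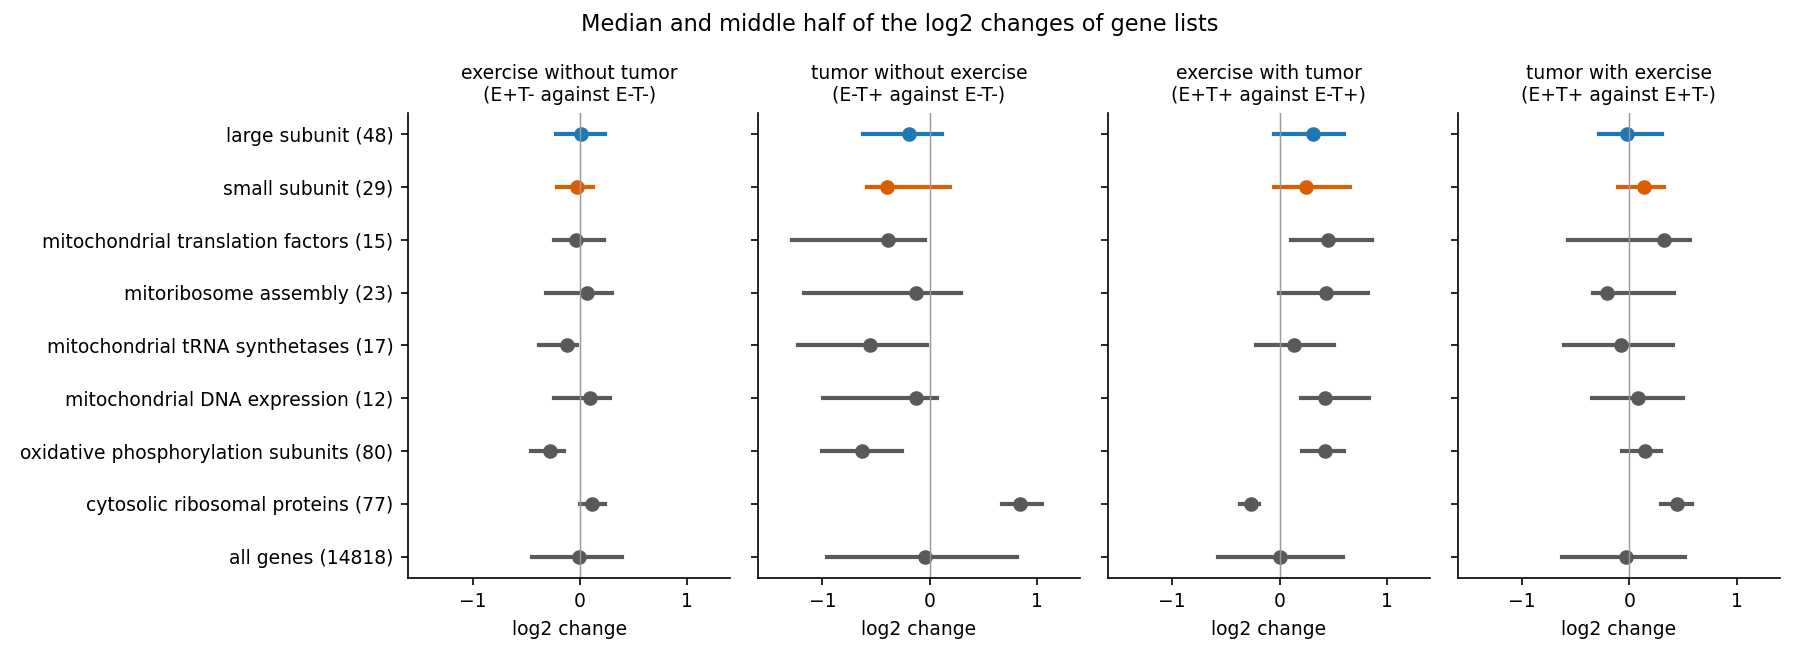
Median log2 change (points) and interquartile range (bars) of each list in the 4 comparisons, with the number of genes that met the minimum with the tumor without exercise in brackets. The bars show spread between genes, not error. With the tumor without exercise the cytosolic ribosomal genes lie at 0.842, the oxidative phosphorylation genes at -0.627, and the large and small mitochondrial subunits at -0.191 and -0.396.

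Many genes of the mitochondrial ribosome share a start region with a neighbour transcribed in the other direction. Of the 77 genes 33 had a protein-coding neighbour with a start within 1000 bases, head to head, by GENCODE M21. For 29 pairs both genes were found by symbol and had reads. A neighbour held under another symbol was missed, such as Twnk beside Mrpl43, held as Peo1. Members of a pair had the same sign of change in 13 of 29 pairs with exercise alone, 15 with the tumor without exercise, 12 with exercise in tumor-bearing mice and 18 with the tumor in exercised mice. A single pair joined 2 genes of the mitochondrial ribosome, Mrps11 and Mrpl46, 1 from each subunit. The GENCODE transcripts of these genes overlap at their starts, and the stretch printed above lies between the RefSeq starts. They fell by 1.92 and 1.68 with the tumor without exercise and by 1.22 and 1.21 with the tumor in exercised mice. With exercise in healthy mice their log2 changes were -0.03 and -0.17, and with exercise in tumor-bearing mice 0.66 and 0.30.

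Other pairs moved apart. Mrpl18 fell by 1.47 with the tumor without exercise, while its neighbour Tcp1, a subunit of the cytosolic chaperonin, had 1418, 1495, 3398 and 2048 and rose by 1.26. Mrpl49 had a log2 change of -0.51 and its neighbour Fau, which encodes a protein of the cytosolic ribosome, rose by 1.22. Mrpl32 had 0.087 and Psma2, a proteasome subunit, rose by 1.56. Mrpl36 and Ndufs6, a complex I subunit, had -0.54 and -0.22, and Mrpl47 and Ndufb5, another complex I subunit, had -0.92 and -0.61. Mrpl21 and its neighbour Ighmbp2, with 44, 17, 34 and 27 reads, both fell with exercise in healthy mice, by 1.13 and 1.71.

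**Figure D5:**
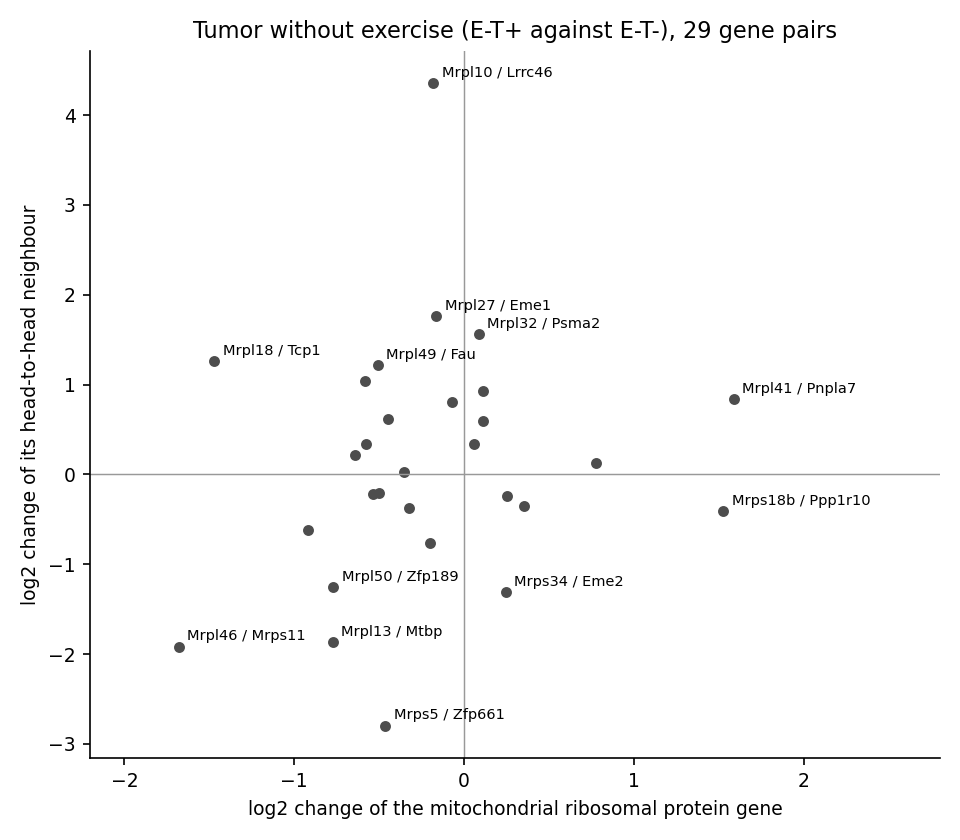
Log2 change of the head-to-head neighbour (vertical axis) against that of the mitochondrial ribosomal protein gene (horizontal axis) with the tumor without exercise, 1 point for each of 29 pairs, from 1 library against 1. Mrpl46 and Mrps11 lie together at the lower left, Mrpl18 and Tcp1 lie on opposite sides of 0, and 15 pairs share a sign.

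The 3′ ends of 8 of the 77 genes are overlapped within the last 300 bases by an exon on the other strand, for 6 of them by a gene of the table. Besides Mrps34, Mrps18b and Mrpl19 these were Mrpl10, Mrpl24, Mrpl49, Mrps7 and Mrps25. Of these 8 genes, Mrps18b and Mrpl19 were among the 15 that changed, and their values are uncertain for that reason.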

How the data were processed

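Total RNA of gastrocnemius was made into 3′ mRNA libraries with a Lexogen QuantSeq kit, 1 library per group, and groups were taken from the sample titles. According to the methods and the labels, the authors aligned reads with Bowtie2 to mm10, obtained gene counts from bedtools coverage, and normalized them by quantiles in edgeR. Versions, strand setting and the handling of reads that match several genes are not given in the sources used here. The deposited unit is log2, taken after adding 1 to the normalized read count. Read counts were rebuilt from the steps of these values with a negative binomial model of the adjustment (dispersion 0.339), which placed 100% of the deposited log2 values within 0.0006 of a whole number of reads. Counts of abundant genes are approximate to a few reads.

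Differences are of deposited log2 values, which understates changes of low genes. Rebuilding and calling were tested on simulated data for the tumor comparison without exercise over 23282 genes, and 100% of 200 genes changed 4-fold were called. The simulated reads varied by counting error only, and the changed genes had mean levels over 50. The run therefore checks the steps of the calculation. It does not show how well changes near 2-fold are found or how animals differ. Intervals use a confidence level of 95% on the rebuilt reads with the fitted scaling. The plan allowed for counts, but the unit is log2 and no group has 2 libraries, so no p-value is given. Python 3.11.15, pandas 2.3.3 and scipy 1.17.1 were used.

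The members and gene lists were chosen with earlier results of these data known. Genes were named by rule, namely the 6 largest rises and falls per comparison at a level of 16 or more, the 5 highest and lowest mean levels, structural exceptions, stalk and S18 relatives, and 3 genes per pathway list, of which 1 gene is not reported here. Mrps33 and Mrpl12, which also changed, genes near the threshold, and the neighbour pairs were named after their values were seen. Cytosolic ribosomal and oxidative phosphorylation genes were taken by symbol. Alternatives were scaling by total count, by TMM or by median of ratios, a pseudocount of 4, a minimum of 16 or none, a 1.5-fold threshold, subunits by structure, and leaving out Mrps36.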

Additional observations from a re-analysis of the deposited data

Results flagged for a closer look

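Results are listed here because exercise, or the tumor, moved the value in opposite directions in the 2 settings in which its effect was measured. Each effect rests on 1 pair of libraries, and none of these differences was tested. The exercise effect was larger with the tumor than without it by 0.298 for the median of all 77 genes (from -0.021 to 0.277) and 0.281 for the median of the small subunit (from -0.032 to 0.249). The tumor effect with exercise minus that without was 0.35 for the median of all genes (from -0.311 to 0.039) and 0.53 for the median of the small subunit (from -0.396 to 0.134). The medians near 0 in these differences change sign with total count scaling.

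Among single genes, the exercise effect differed by 1.253 for Mrpl18 (from -0.222 to 1.031) and by 1.211 for Mrpl28 (from -0.183 to 1.028). For Mrpl39 both the exercise and the tumor effect differed by 1.792. Its exercise effect went from -0.437 in healthy to 1.355 in tumor-bearing mice, and its tumor effect from -1.08 without to 0.712 with exercise. For Mrpl42 both effects differed by 1.624, with exercise effects of -0.517 and 1.107 and tumor effects of -1.328 and 0.296. The 2 differences of a gene are the same number by construction, since both use all 4 libraries.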

How the results depend on the processing

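Of 170 recomputed values 161 stayed within 1.5 times for counts, or for medians within the 95% order-statistic range over genes, and 9 did not. Raising or dropping the minimum could move none of these values, because all 77 genes lay above the raised minimum in every library. The lowest level was 24.2, for Mrpl21 in E+T-. The 161 thus include values that had no room to move and overstate how far the results were checked. The size of a count does not show which genes it holds. Under total count scaling the gene called with exercise in healthy mice was Mrps26 (higher) in place of Mrpl21 (lower), the tumor without exercise gave 2 higher and 9 lower genes, exercise in tumor-bearing mice 2 higher and 2 lower, and the tumor in exercised mice 0 higher and 5 lower. Median-of-ratios scaling dropped Mrps33 from the tumor comparison without exercise and Mrpl28 from exercise in tumor-bearing mice. TMM scaling changed no call of the 77 genes. It moved the median of all genes by 0.0 in each comparison, so it was nearly the deposited scaling and hardly a separate check. Under total count scaling the median log2 change with exercise in healthy mice became 0.14 for all genes, 0.173 for the large and 0.127 for the small subunit. With the tumor in exercised mice it became -0.116, and the median difference between the exercise effects, an alternative added after seeing the data, became 0.08. These shifts follow from the scaling itself, which moved the median of all genes by 0.16, 0.071, -0.066 and -0.155 in the 4 comparisons in the order of the report. With a threshold of 1.5-fold exercise in healthy mice changed 3 genes. The same threshold gave 26 with the tumor without exercise (6 higher, 20 lower), 25 with exercise in tumor-bearing mice (23 higher, 2 lower) and 14 with the tumor in exercised mice (7 higher, 7 lower). These counts are larger by the construction of the threshold. The shares of all genes at 1.5-fold were not computed, so the counts and their directions have no background. No paired analysis was possible because each group has 1 library, and no library could be left out for the same reason. Depth limits the low genes, such as Mrpl21 with 27 to 65 reads.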
